A study of Mus musculus with 17 samples.

Results

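The baseline transcriptome of untargeted leukaemic bone marrow was described from the 8 libraries titled control (numbers 1, 2, 3, 7, 8, 9, 14 and 15) of 17 libraries in the series, and from the 3 summed columns the authors made from them, of 6 in all. Those sums joined libraries 1-3, 7-9 and 14-15 and are called samples here. The bulk total RNA was taken from the marrow of C57BL/6 animals carrying acute myeloid leukaemia (AML), all of the genotype Dnmt3aR878H/+;Npm1cA/+, and the remaining 9 libraries carried a CRISPR-Cas9 knockdown of Mt1 in addition. The labels give neither age, sex nor the number of animals, and they call every library a technical replicate. Whether each sample is its own animal is not stated, so the spread and the p-values below measure differences between these libraries, which may be technical. The share of leukaemic cells in the marrow is not given, and in bulk RNA fewer cells of a type and less RNA per cell cannot be told apart.

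Dnmt3a encodes a DNA methyltransferase that places new methyl marks, and mutations of it are common in AML. The Npm1cA allele encodes a nucleophosmin that is held in the cytoplasm, and leukaemias with it typically keep HOXA cluster genes and Meis1 switched on. Such leukaemias range from immature blasts to forms that resemble monocytes, the circulating precursors of macrophages. A stranded total RNA kit for very small inputs was used, so noncoding RNA is counted as well as messenger RNA. How much ribosomal RNA was removed in library making was not examined. Shares of rRNA below are therefore shares of the counts and not of the RNA in the cells. The control libraries held between 27210427 and 36599277 counts, and the samples 94497323 (1-3), 98352459 (7-9) and 64247249 (14-15) counts. Between 14823 and 17739 genes had a count in a library. Library 9 stood apart, with the fewest genes and the fewest counts, and results that rest on it are given with and without it. By the column headers, libraries 1, 2, 3, 7 and 8 shared one second index sequence and libraries 9, 14 and 15 shared the other.

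Protein-coding genes took 85.9% ± 2.56 of the counts (SD, n = 3 samples), and the rest was mostly a few noncoding transcripts. Levels in CPM are a gene's counts scaled to a fixed library total, and are relative to all counts of a library or sample unless another scale is named. The 2 mitochondrial ribosomal RNAs took 6.45% ± 1.80, long intergenic noncoding RNAs 3.24% ± 0.959, and misc_RNA, which holds the 7SL and 7SK RNAs, 1.02% ± 0.121. Nuclear rRNA loci took 0.808% ± 0.254 and processed pseudogenes 0.602% ± 0.0252. MicroRNA loci held 0.000121% of the counts. Of 56305 identifiers, 1078 had no match in the annotation and took 0.359%.

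The shares differed between libraries. Mitochondrial rRNA was 5.20%, 4.98% and 4.67% in libraries 1, 2 and 3, then 6.03%, 8.77% and 11.2% in libraries 7, 8 and 9, and 5.67% and 6.31% in libraries 14 and 15. Sample 7-9 had the highest mean, and its library 7 overlapped library 15. Per base of exon the order changed: protein-coding genes took 65.6%, mitochondrial rRNA 14.5% and misc_RNA 9.98%.

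**Figure D1:**
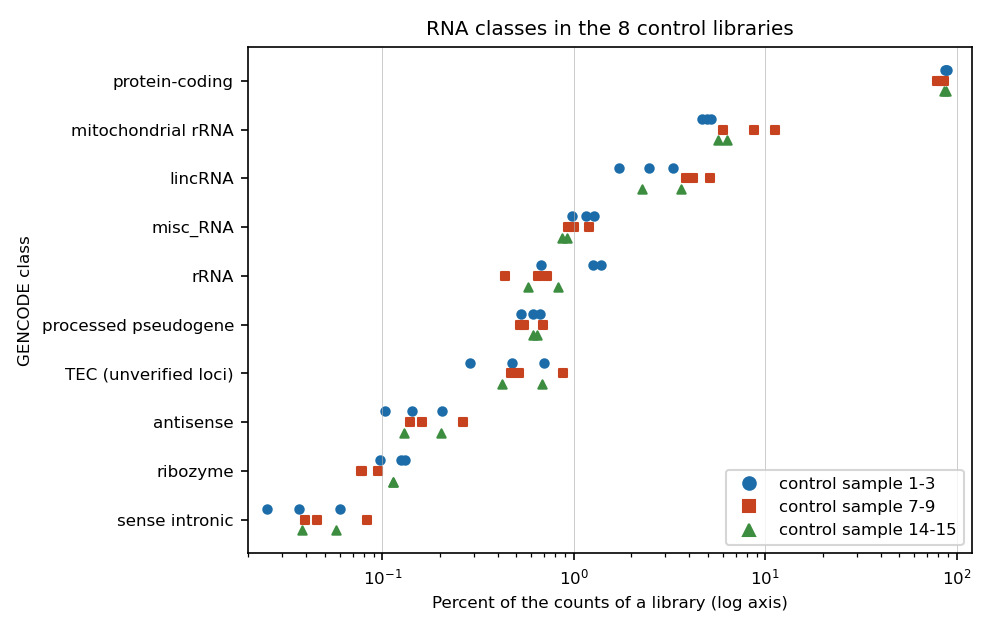
Percent of a library's counts (log axis) in each of 10 GENCODE classes, with each point a control library coloured and shaped by its summed sample. Protein-coding genes held 79.1% to 88.6% in every library, and mitochondrial rRNA ranged from 4.67% to 11.2%, highest in libraries 8 and 9, while library 7 lay below library 15.

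Few genes held much of the counts. The 10 genes with the most counts held 14.7% ± 2.65 of the total, the first 100 held 32.5% ± 2.00, and 501 genes held 50% of it. Of the first 100, 88 were protein-coding. A mean of at least 1000 CPM was reached by 81 genes, at least 10 CPM by 8291 genes (14.7% of all listed and 37.7% of those with a count), and at least 1 CPM by 13006. The first 100 genes of samples 1-3 and 14-15 shared 94 members, those of 1-3 and 7-9 shared 87, those of 7-9 and 14-15 shared 88, and 83 were in all 3 lists.

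The transcripts with the most counts were mt-Rnr2 (46108 ± 12282 CPM, SD, n = 3 samples), the large mitochondrial rRNA, Malat1 (28037 ± 9422), a nuclear noncoding RNA, and mt-Rnr1 (18351 ± 5677), the small mitochondrial rRNA. Malat1 (ENSMUSG00000092341, GRCm38 chromosome 19, 5795690 to 5802672, minus strand) was 20319, 14046 and 27508 CPM in libraries 1 to 3. It was 34765, 37372 and 45450 CPM in libraries 7 to 9, and 19216 and 31012 CPM in libraries 14 and 15. The libraries of sample 7-9 lay above all others for Malat1, yet the samples did not pass the test (edgeR quasi-likelihood F test over the 8 libraries, Benjamini-Hochberg adjusted p = 0.0826).

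Among nuclear protein-coding genes, Actb (8471 ± 1475 CPM), encoding cytoplasmic actin, and Ahnak (8401 ± 1531), a very long gene for a membrane scaffold protein, led by counts. The ferritin chains Fth1 (7971 ± 2297 CPM) and Ftl1 (7047 ± 281), which store iron, and Hmox1 (3243 ± 903), which degrades haem, ranked 7, 10 and 24. Spp1 (ENSMUSG00000029304, chromosome 5, 104435118 to 104441050, plus strand), the secreted protein osteopontin, was 7658 ± 509 CPM. Its library values ran from 5842 in library 9 to 9480 in library 14, so the 3 samples were close while their libraries were not.

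The next ranks were filled by cytoskeletal, matrix and lysosomal genes. Plec, Myh9, Vim and Flna, which encode the linker plectin, non-muscle myosin, vimentin and filamin, were at 6154 ± 283, 4528 ± 150, 3712 ± 312 and 2361 ± 98.3 CPM. The matrix genes Vcan (versican) and Fn1 (fibronectin) were at 4750 ± 838 and 3286 ± 677 CPM, and Lrp1, a large endocytic receptor, at 5665 ± 1982. Psap, the precursor of lysosomal saposins, was at 4419 ± 363 CPM, and App, the amyloid precursor protein, at 2384 ± 31.7.

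Per length the order was different. Of the 20 leading genes by CPM, 12 were also among the leading 20 by counts scaled to exon length (TPM), and 69 of the leading 100 were shared. Ahnak ranked 5 by CPM and 70 by TPM, Plec 11 and 88, and Lrp1 13 and 97. Short transcripts moved the other way: the 7SL RNAs Rn7s1 and Rn7s2 ranked 18 by CPM and 3 by TPM, Rn7sk 27 and 5, and Lyz2 21 and 13.

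**Figure D2:**
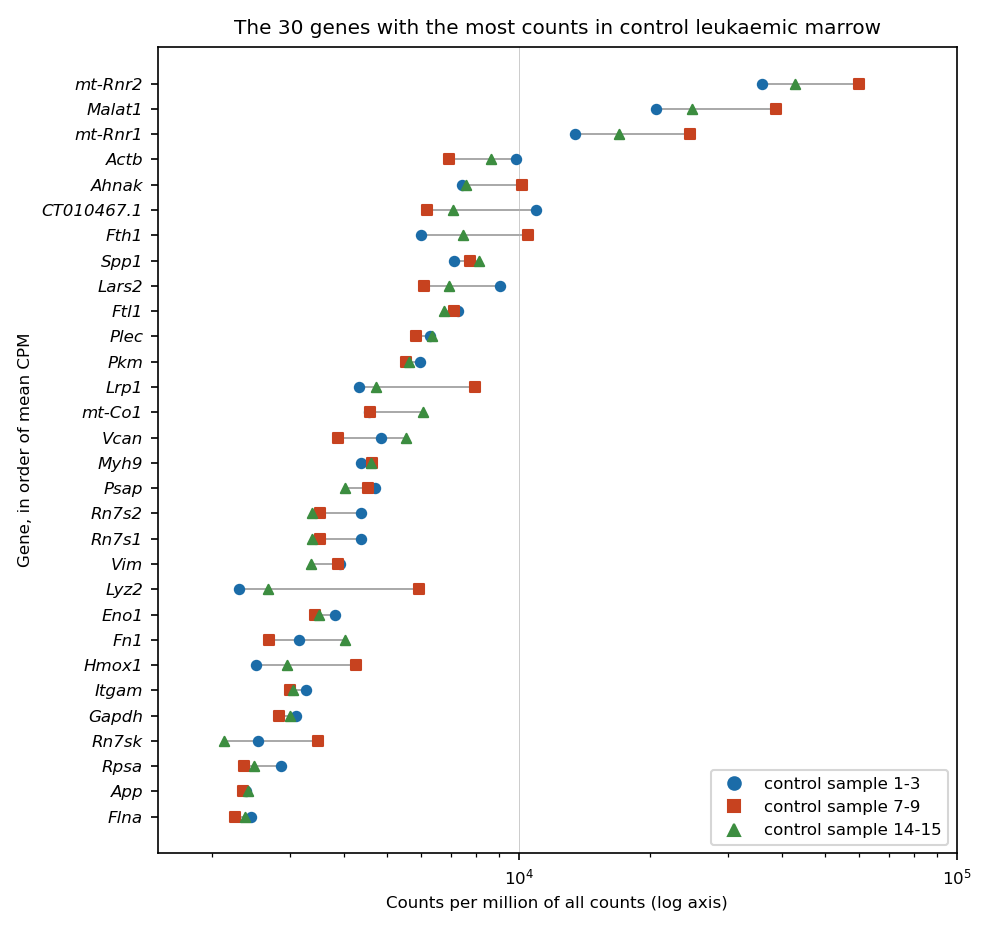
CPM (log axis) of the 30 genes with the most counts, with a symbol for each of the 3 control samples and a line from the lowest to the highest. App, Myh9 and Ftl1 had nearly the same level in every sample, while Lyz2, Lrp1, Malat1 and both mitochondrial rRNAs were highest in sample 7-9.

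Several abundant entries share sequence and are uncertain. Rn7s1 and Rn7s2 were identical over all 300 bases and had the same count in every library. The nuclear copies Gm10925, Gm28661 and Gm28437 were identical to mt-Atp6, mt-Co2 and mt-Co3 over 678, 681 and 783 bases. mt-Co2, a subunit of cytochrome oxidase, was at 0 in all 8 libraries while its copy Gm28661 was at 911 ± 225 CPM. Tpt1-ps3 matched Tpt1 over 519 bases. The sources used here do not give how reads shared by such copies were assigned, so levels of single members of these pairs are not read as expression.

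Most markers of monocytes and macrophages were abundant, but not all. Of 25 listed markers, 19 reached 10 CPM, against 14.7% of all genes. Another 3 lay between 1 and 10 CPM, among them Fcgr1 (4.07 CPM) and Cd163 (2.71 CPM), and 3 were under 1 CPM. Itgam (chromosome 7, 128062640 to 128118491, plus strand), the integrin CD11b, was 3110 ± 147 CPM, and its libraries ran from 2552 in library 9 to 3352 in library 2. Csf1r, the receptor for macrophage colony-stimulating factor, was 409 ± 48.1 CPM, from 336 to 526 over libraries. Neither differed between samples past the test (edgeR adjusted p = 0.795 and 0.759).

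The third defining marker, Lyz2 (ENSMUSG00000069516, chromosome 10, 117277331 to 117282321, minus strand), encodes lysozyme and averaged 3641 ± 1999 CPM. It was 2381, 2404 and 2139 CPM in libraries 1 to 3, 6387, 6091 and 5142 CPM in libraries 7 to 9, and 2782 and 2564 CPM in libraries 14 and 15. All 3 libraries of sample 7-9 were higher than the other 5. All 3 markers were present in every control library.

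Other markers of the list covered both monocyte and macrophage genes. F13a1, encoding the A chain of coagulation factor XIII, was at 2092 ± 668 CPM, the scavenger receptor Msr1 at 575 ± 207, and Mpeg1, a pore-forming protein of macrophages, at 487 ± 137. Ly6c2, a surface marker of inflammatory monocytes, was at 384 ± 113 CPM and the chemokine receptor Ccr2 at 249 CPM. Also in this range were Adgre1 (255 CPM), encoding F4/80, and Cd68 (254 CPM), a lysosomal glycoprotein.

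Granulocyte genes were uneven. Of 24 listed neutrophil genes in the table, 10 reached 10 CPM, led by Chil3 (1173 ± 973 CPM), a secreted chitinase-like protein made by neutrophil precursors and some macrophages. Mmp8, a collagenase, was at 198 CPM, and the granule proteases Elane, Prtn3 and Ctsg at 49.0, 33.8 and 21.0 CPM. Of the 24, 10 were under 1 CPM. Ltf and Camp had 0 counts in all 8 libraries, which allows up to 0.0117 CPM over their sum. S100a9 was at 0.0247 CPM.

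Markers of lymphoid, erythroid and stromal cells were scarce. None of 19 B cell genes reached 10 CPM, and their summed level was 7.90, 7.95 and 1.15 CPM in samples 1-3, 7-9 and 14-15. Ms4a1 and Pax5, which mark B cells, had 0 counts. Of 22 T and NK cell genes, 3 reached 10 CPM: Cd28 (84.3 CPM), Il7r (43.4) and Gzmb (43.1), while Cd3g, Cd4, Lck and Nkg7 had 0 counts. Cd3e, a chain of the T cell receptor complex, was at 0.161 CPM, so the defining receptor genes were at or near 0.

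Of 19 erythroid genes 1 reached 10 CPM, the transferrin receptor Tfrc (66.8 CPM), which dividing cells of many types use. The globins Hba-a1 and Hbb-bs averaged 4.19 and 6.05 CPM, most of it from library 9, where they were 37.2 and 49.4 CPM. Without that library their levels ran from 0 to 6.72 CPM. Of 18 stromal and endothelial genes, 3 reached 10 CPM (Runx2, Pecam1 and Acta2), and Cdh5, Emcn and Tek had 0 counts. Of 15 dendritic cell genes 2 did, the transcription factors Tcf4 and Irf8.

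Of 18 megakaryocyte and platelet genes, 6 reached 10 CPM. Thbs1, the adhesive glycoprotein thrombospondin, led at 2042 ± 680 CPM, ahead of Selp (394 CPM), the adhesion receptor P-selectin, and the platelet chemokine Pf4 (108 CPM). As background, monocytic cells can also express Thbs1 and Pf4.

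**Figure D3:**
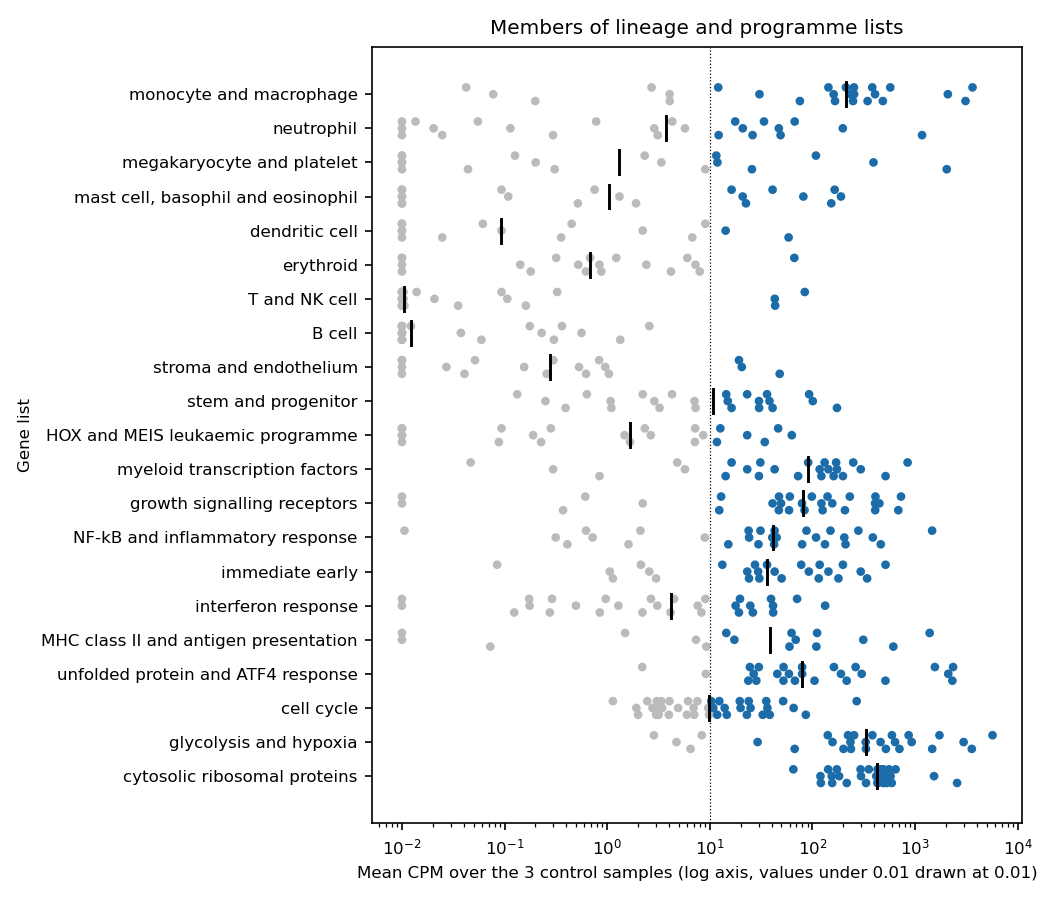
Mean CPM over the 3 control samples (log axis, values under 0.01 drawn at 0.01) of each member of 21 gene lists, in blue at 10 CPM or more, with a black bar at the list's median and a dotted line at 10 CPM. Monocyte, glycolysis and ribosomal protein lists lie to the right, and the B cell, T and NK cell, dendritic cell and stromal medians lie under 1 CPM.

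HOXA genes of the leukaemic programme were measured at moderate levels and HOXB genes at or near 0. Of 23 listed HOX, MEIS and PBX genes, 6 reached 10 CPM: Hoxa9 (63.0 ± 8.67 CPM), Hoxa7 (46.4 ± 7.12), Hoxa10 (34.4 ± 1.50), the cofactor Meis1 (23.2 ± 3.34), Hoxa3 (12.7) and Hoxa11 (11.7). Hoxa9 lay between 48.4 and 83.3 CPM in the 8 libraries. Hoxb2, Hoxb5, Hoxb6, Hoxb8 and Hoxb9 had 0 counts, and Hoxb3 and Hoxb4 were at 0.0934 and 0.227 CPM. None of the 15 tested members differed between samples (edgeR quasi-likelihood, adjusted p under 0.05), against 2.75% of all tested genes. Limma-voom and DESeq2 also called 0, and 1 of the 15 had an unadjusted p under 0.05.

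The genes of the genotype and the targeted locus were measured in all libraries. Npm1 was 268 ± 15.9 CPM, with libraries between 233 and 290. Dnmt3a was scarce at 2.82 ± 1.48 CPM, with libraries between 0.328 and 5.73. Mt1, a metal-binding metallothionein, was 401 ± 54.7 CPM and its neighbour Mt2 97.2 ± 14.0. The libraries of 7-9 held 459 to 471 CPM of Mt1 against 348 to 399 in the other 5, a difference that did not pass the test (edgeR adjusted p = 0.228).

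Myeloid transcription factors were present at moderate levels. Of 25 listed, 20 reached 10 CPM, led by Zeb2 (848 ± 22.9 CPM), Jun (517 CPM), Klf6 (296 CPM) and Cebpb (250 ± 21.6 CPM). Spi1, which encodes PU.1, was 132 ± 9.11 CPM and Cebpa 91.0 ± 11.9 CPM. Irf8, needed for monocyte and dendritic cell fate, was low at 14.3 CPM. Of 24 stem and progenitor genes, 12 reached 10 CPM, against 14.7% of all genes listed, and 4 were under 1 CPM. Among receptors, 23 of 28 reached 10 CPM, led by Il4ra (731 ± 318 CPM), Csf2rb (689 CPM) and Tnfrsf1b (450 CPM), while Flt3 was at 2.22 CPM and Kit at 41.0.

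Antigen presentation was of the class I kind. H2-D1 (1392 ± 285 CPM), H2-K1 (616 ± 243) and B2m (314 ± 108), the chains of class I molecules, were abundant. The class II gene H2-Aa had 0 counts, and Cd74, the class II invariant chain, was at 7.34 ± 2.64 CPM. Of 29 interferon-stimulated genes, 10 reached 10 CPM (14.7% of all listed genes did), 9 lay between 1 and 10 CPM and 10 below 1 CPM, among them Mx1 and Ifi44 at 0. Ifitm3 led that list at 133 CPM, and 0 of 24 tested members differed between samples (edgeR, with 3 at an unadjusted p under 0.05, 0 by limma-voom and 2 by DESeq2), where the share over all tested genes was 2.75%.

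Of 28 glycolysis and hypoxia genes, 24 reached 10 CPM, led by Pkm (5703 ± 234 CPM), Eno1 (3583 ± 207) and Gapdh (2981 ± 135), which act in the later steps of glycolysis. A gene was called steady when its highest sample was less than 25% above its lowest after TMM scaling, which corrects for composition. By this measure 16 of those 24 were steady, against 45.6% of the 8291 genes of at least 10 CPM. Of the 11 genes of the mitochondrial genome proteins list at that level, 3 were steady. That list includes mt-Atp6, mt-Co2 and mt-Co3, which share sequence with nuclear copies, so its count is not read as a result about expression. Of 28 tested glycolysis and hypoxia members 1 was called, Pgk1, a count near the 2.75% of all tested genes, and Pgk1 was not called when library 1, 2, 3, 7, 8 or 9 was left out.

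All 30 listed cytosolic ribosomal protein genes reached 10 CPM, led by Rpsa (2574 ± 259 CPM) and Rplp0 (1536 CPM). Of 40 cell cycle genes 19 did, led by Cdk6 (271 CPM), a kinase of the G1 phase, Ccnd3 (86.4 CPM) and the proliferation marker Mki67 (65.7 ± 38.6 CPM). Mki67 was 92.5, 58.1 and 64.0 CPM in libraries 1 to 3, 4.97, 48.8 and 22.1 in libraries 7 to 9, and 140 and 60.3 in libraries 14 and 15. The 7-9 libraries were the lowest, but library 7 was far below library 8, and the samples did not pass the test (edgeR adjusted p = 0.258).

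The steadiest protein-coding genes of at least 100 CPM are given as a description, since 3 values give no test. They were Ago2, the slicer of microRNA complexes, Rab7, a late endosome GTPase, Ptp4a2, Dpp8, Aplp2, Ehbp1l1, Glg1, Slc2a1, Dctn1 and Arap1. Ago2 (chromosome 15, 73095844 to 73184935, minus strand) was 246, 248 and 247 TMM-scaled CPM in samples 1-3, 7-9 and 14-15. Its libraries still ran from 225 to 271 CPM. Slc2a1, the glucose transporter GLUT1, was 599, 599 and 591 TMM-scaled CPM, with libraries between 526 and 681 CPM.

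The remaining question was which genes varied among the 3 control samples. The 8 libraries were tested with edgeR's quasi-likelihood F test with the summed sample as a factor. Of 16529 tested genes, 455 (2.75%) passed an adjusted p under 0.05, and 2162 had an unadjusted p under 0.05. Sample 7-9 was the lowest in 346 of the called genes (2.09% of those tested) and the highest in 108 (0.653%), and 1 predicted locus (0.00605%) followed neither pattern. In 451 of the 455 every 7-9 library lay outside the range of the other 5, which also held for 14.0% of all tested genes. Among tested genes of at least 10 CPM the called share was 5.27% (4.08% lowest and 1.19% highest in 7-9), and 20.9% had the 7-9 libraries apart. Of the 8291 genes at that level 561 (6.77%) had a highest sample at least 2 times the lowest.

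Compared in pairs, samples 1-3 and 14-15 gave 0 called genes of 15398 tested (0.00%) by edgeR and by limma-voom, with 532 at an unadjusted p under 0.05 and 25 by DESeq2. Samples 1-3 and 7-9 gave 761 calls of 14670 (5.19%) by edgeR, 875 by limma-voom and 1341 by DESeq2. Samples 7-9 and 14-15 gave 61 of 15574 (0.392%) by edgeR, 119 by limma-voom and 569 by DESeq2. At an unadjusted edgeR p under 0.05 there were 2554 genes for 1-3 and 7-9, and 1481 for 7-9 and 14-15. Sample 14-15 has 2 libraries and the others have 3, so counts of the pairs are not on equal terms. Spearman correlations of libraries, over genes of at least 10 CPM, were 0.935 to 0.972 between samples 1-3 and 14-15. They were 0.857 to 0.935 between 1-3 and 7-9 (0.905 to 0.935 without library 9) and 0.870 to 0.932 between 7-9 and 14-15 (0.910 to 0.932 without it). Within samples they were 0.957 to 0.970 in 1-3, 0.945 in 14-15 and 0.914 to 0.956 in 7-9, where libraries 7 and 8 gave the 0.956.

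Other measures moved with sample 7-9. Malat1 made up 3.48% to 4.54% of its libraries against 1.40% to 3.10% of the other 5, and mitochondrial rRNA was high in libraries 8 and 9. Without mitochondrially encoded and ribosomal RNA genes 451 genes were called, and without library 9 there were 385. The part of RNA quality, handling or cell content in these differences was not tested. Leaving out library 1, 2, 7 or 8 lowered the count to 199, 206, 280 or 172, and leaving out sample 7-9 gave 0.

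**Figure D4:**
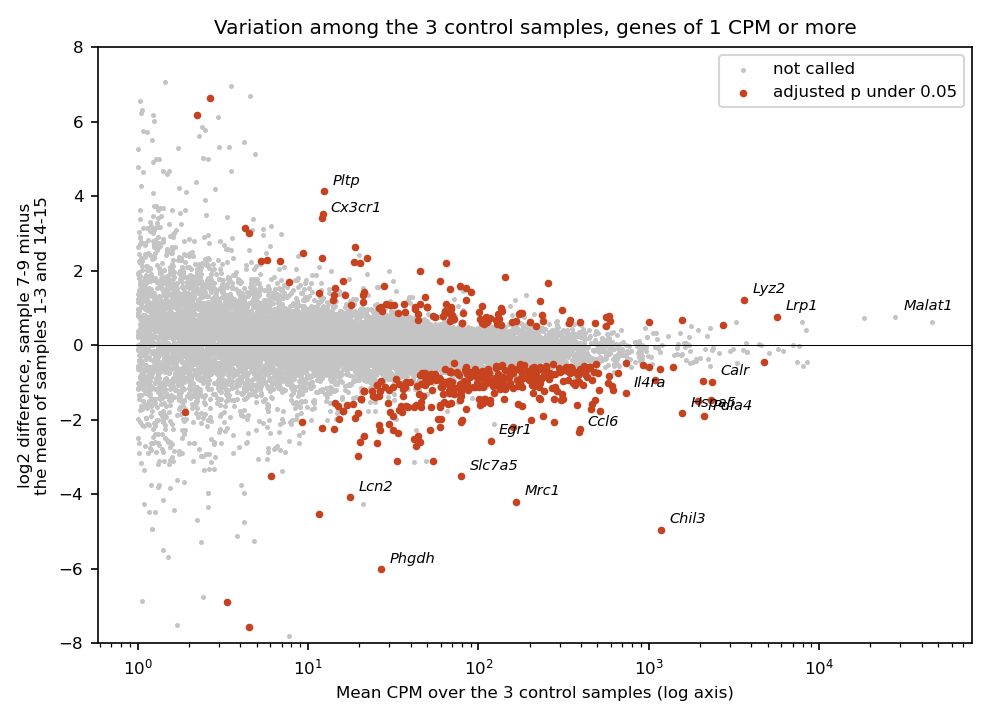
The log2 difference of sample 7-9 from the mean of samples 1-3 and 14-15 (fitted by edgeR) against mean CPM (log axis) for tested genes of at least 1 CPM, with called genes in red and 14 genes beyond the plotted range of 8 not shown. Most red points lie below 0, led at high expression by Chil3, Mrc1 and the endoplasmic reticulum chaperones, while Lyz2 and Lrp1 lie above 0.

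The list with the largest called share was the unfolded protein and ATF4 response. This response raises chaperones and folding enzymes when proteins misfold in the endoplasmic reticulum, and its ATF4 arm raises amino acid synthesis and import. Of 25 members, 23 reached 10 CPM and 16 of 25 tested were called, all lowest in sample 7-9. That share was 2.09% over all tested genes and 4.08% over those of at least 10 CPM. The members' median high-to-low ratio was 3.02, against 1.55 over all tested genes and 1.27 over genes of at least 10 CPM. The lists were chosen with earlier results of these data known, so these shares describe the list and do not test it. The summed level of the list was 14057 CPM in sample 1-3, 5370 in 7-9 and 12626 in 14-15. Without library 9, 15 members were called, and over the libraries left out in turn the number ran from 10 to 19.

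Promoters of 4 called members are shown, picked because they hold short motifs known for the pathway. They are the 250 bases before the RefSeq transcription start (build GRCm38.p6), 5′ to 3′ on the gene's strand, with motif matches in capitals. The capitals mark the endoplasmic reticulum stress element, CCAAT then 9 bases of any kind then CCACG, on either strand, in the first 3, and the ATF4 composite site, TGATGNAA on either strand, in Asns. Hspa5 lies at chr2:34771840-34772089 (plus), Hsp90b1 at chr10:86705445-86705694 (minus), Calr at chr8:84846932-84847181 (minus) and Asns at chr6:7693210-7693459 (minus).
Hspa5: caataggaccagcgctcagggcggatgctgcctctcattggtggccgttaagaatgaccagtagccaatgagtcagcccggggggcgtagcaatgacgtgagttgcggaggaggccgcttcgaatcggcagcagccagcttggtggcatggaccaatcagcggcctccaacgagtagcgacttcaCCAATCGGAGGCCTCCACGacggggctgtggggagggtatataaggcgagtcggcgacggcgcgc
Hsp90b1: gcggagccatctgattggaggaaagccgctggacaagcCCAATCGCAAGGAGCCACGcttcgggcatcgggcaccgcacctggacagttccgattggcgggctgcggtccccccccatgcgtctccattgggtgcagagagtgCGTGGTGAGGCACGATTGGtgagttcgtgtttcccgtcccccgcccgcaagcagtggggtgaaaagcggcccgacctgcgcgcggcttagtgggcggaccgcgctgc
Calr: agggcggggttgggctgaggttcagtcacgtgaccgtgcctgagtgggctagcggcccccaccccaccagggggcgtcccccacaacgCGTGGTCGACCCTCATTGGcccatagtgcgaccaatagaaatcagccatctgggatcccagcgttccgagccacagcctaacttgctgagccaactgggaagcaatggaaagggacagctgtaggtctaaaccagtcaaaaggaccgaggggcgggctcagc
Asns: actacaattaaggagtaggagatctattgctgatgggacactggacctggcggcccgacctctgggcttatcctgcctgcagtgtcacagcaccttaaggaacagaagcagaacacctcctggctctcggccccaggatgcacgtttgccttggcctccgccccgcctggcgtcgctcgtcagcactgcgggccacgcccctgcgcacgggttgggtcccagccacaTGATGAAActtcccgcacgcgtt

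The endoplasmic reticulum stress element was found in 37 of 32851 promoters of this length (0.113%) and in 4 of 23 list members with a RefSeq promoter, Calr, Hsp90b1, Hspa5 and Pdia6. The ATF4 composite site was in 1134 promoters (3.45%) and in 4 list members, Asns, Chac1, Herpud1 and Slc7a11. Hsp90b1 held 2 matches of the stress element, and no list promoter held both motifs. Of 15 called members with a promoter, 4 held the stress element and 3 the ATF4 site. The called members Pdia4, Dnajb9, Xbp1 and Atf4 held neither. All starts were counted for the background, and the first listed start for each member. The list was made of genes of this pathway, so its shares say nothing about sample 7-9. A match describes letters in the window and not a bound site.

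The chaperones carried most of the change by counts. Hspa5 (ENSMUSG00000026864), the ER chaperone BiP, was 2037, 2217 and 1859 CPM in libraries 1 to 3, 607, 556 and 601 CPM in libraries 7 to 9, and 2518 and 1573 CPM in libraries 14 and 15. The 7-9 libraries did not overlap the rest, with a log2 difference of -1.82 (SE 0.16, edgeR adjusted p = 0.000358). Hsp90b1, the chaperone GRP94, was 2938, 3294 and 2720 CPM, then 1162, 1074 and 979, then 3320 and 2402, a log2 difference of -1.47 (SE 0.14, edgeR adjusted p = 0.000461).

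The disulfide isomerase Pdia4 (ENSMUSG00000025823, chromosome 6, 47796141 to 47813430, minus strand) went from 2796 to 3332 CPM in libraries 1 to 3 down to 545 to 955 CPM in libraries 7 to 9. Libraries 14 and 15 held 3006 and 1908 CPM of it, so library 15 was the lowest outside sample 7-9. The same order held in Pdia6, at 516 ± 273 CPM, whose highest sample was 3.43 times the lowest. Calr, the calcium-binding chaperone calreticulin, had a ratio of 2.11 and was not called without library 1, 2 or 8.

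Among genes of amino acid synthesis and transport, 3 called members had large ratios. Slc7a5 (chromosome 8, 121881150 to 121907694, minus strand), a transporter of large neutral amino acids, was 165, 152 and 98.2 CPM in libraries 1 to 3. It was 8.42, 12.2 and 9.08 CPM in libraries 7 to 9, and 134 and 44.9 CPM in libraries 14 and 15. Asns, asparagine synthetase, was 64.2, 10.1 and 62.6 TMM-scaled CPM in the 3 samples. Phgdh, the first enzyme of serine synthesis, was 51.8, 0.576 and 28.4 TMM-scaled CPM, with libraries 7, 8 and 9 at 0.738, 0 and 1.10 CPM. The cystine transporter Slc7a11 had a ratio of 1.70, was not called, and had another order, with 50.3 CPM in library 14 and 196 in library 15.

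Regulators and sensors of the response had these values. Atf4 and Xbp1, 2 transcription factors of the response, had ratios of 1.76 and 1.77 and were called (edgeR adjusted p = 0.0232 and 0.0163). Neither was called without library 1, 2, 7 or 8, nor was Atf4 without library 9. The sensors differed. Eif2ak3, the sensor PERK, was called and lower in sample 7-9, with a log2 difference from -1.02 to -0.888 over the libraries left out in turn. It was not called without library 1, 2, 7 or 8. Ern1, the sensor IRE1, was 195, 188 and 188 TMM-scaled CPM, a ratio of 1.04 that counted as steady. Ddit3, the death-associated factor CHOP, and Sesn2, a stress-induced sestrin, had ratios of 1.26 and 1.24 and were not called.

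**Figure D5:**
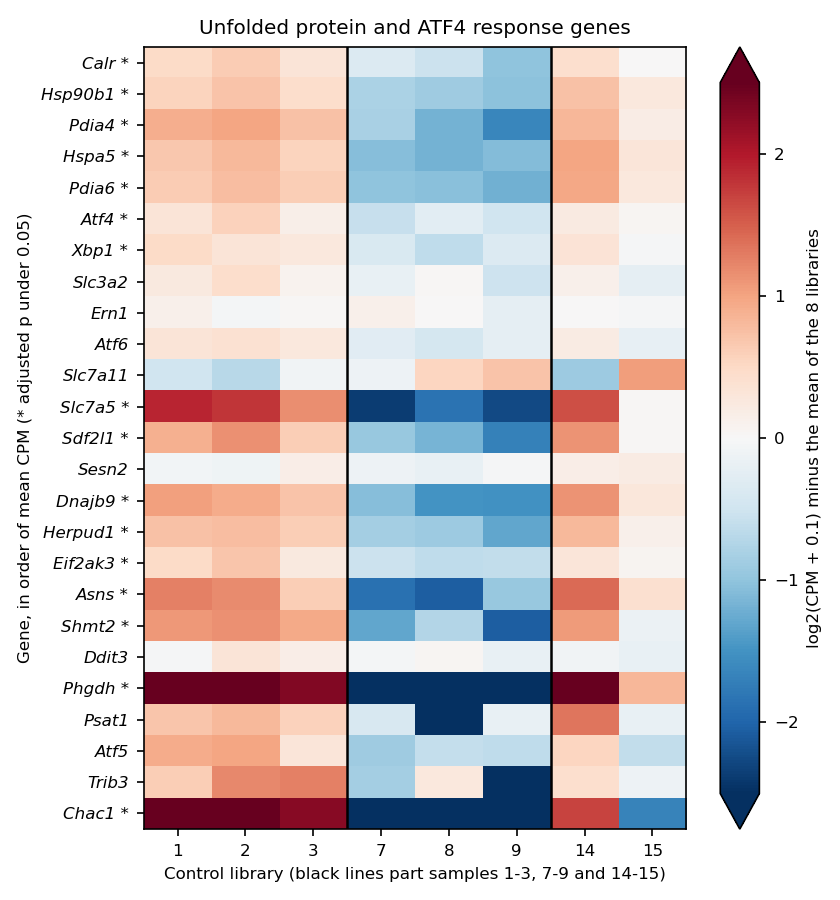
Level of each of the 25 unfolded protein and ATF4 response genes in the 8 control libraries, as log2(CPM + 0.1) minus the gene's mean over the libraries, with colours limited at 2.5. The blue columns 7, 8 and 9 show the called genes (marked *) low in every library of sample 7-9, and library 15 below library 14 in those genes.

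Folding genes outside the list, chosen after their values were seen, included P4hb, Pdia3 and Manf. P4hb, another disulfide isomerase, was 2513, 892 and 2424 TMM-scaled CPM (edgeR adjusted p = 0.000621). Manf, a protein secreted on ER stress, had a ratio of 4.08.

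Within the monocyte and macrophage list 8 of 23 tested markers were called, 4 lowest and 4 highest in sample 7-9, against 2.09% and 0.653% of all tested genes. The lower members were Mrc1, Msr1, F13a1 and Ly6c2. Mrc1 (chromosome 2, 14229392 to 14332057, plus strand), the mannose receptor, was 275, 351 and 309 CPM in libraries 1 to 3, 20.2, 4.46 and 13.6 CPM in 7 to 9, and 265 and 70.9 CPM in 14 and 15. The higher members were Lyz2 (log2 difference 1.22, SE 0.10, edgeR adjusted p = 0.000321), Cx3cr1, Mpeg1 and Cybb. Cx3cr1, the fractalkine receptor of patrolling monocytes, was 2.55, 30.5 and 3.00 TMM-scaled CPM. Mpeg1 and Cybb were not called without library 1, 7 or 8.

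Of the 16 tested neutrophil genes 5 were called, Chil3, Lcn2, Prtn3, Csf3r and Padi4, all lowest in sample 7-9 (2.09% of all tested genes). Chil3 (ENSMUSG00000040809, chromosome 3, 106147554 to 106167564, minus strand) was 1802, 1669 and 1567 CPM in libraries 1 to 3. It was 23.3, 30.2 and 117 CPM in libraries 7 to 9, and 2257 and 1289 CPM in libraries 14 and 15. The highest sample was 34.8 times the lowest (log2 difference -4.95, SE 0.53, edgeR adjusted p = 0.00103). Over the libraries left out in turn the log2 difference ran from -6.03 to -4.67. The summed neutrophil list was 2196, 371 and 2421 CPM in samples 1-3, 7-9 and 14-15. Chil3 alone made up 70.5% of its mean, so the sum largely follows this gene and is not read as a change of the whole list. Padi4 was not called without library 1, 2, 8 or 9.

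Elane, neutrophil elastase, was 56.7, 7.01 and 83.7 TMM-scaled CPM. Its 7-9 libraries were also the lowest, with a log2 difference of -3.10, but library 9 stood above libraries 7 and 8 and the gene did not pass (edgeR adjusted p = 0.169). S100a8 had libraries between 5.62 and 20.2 CPM that overlapped, and Mmp8 had a ratio of 1.33.

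Class I genes H2-K1, B2m and H2-D1 were lowest in sample 7-9, at ratios of 2.33, 2.10 and 1.50. H2-K1 was 779, 334 and 737 TMM-scaled CPM (edgeR adjusted p = 0.00106), while H2-D1 lost its call without library 1, 2, 3, 7, 8 or 9. Of 26 tested receptors 7 were called (2.75% of all tested genes), 6 lowest in 7-9 and Flt3 highest. Without library 1, 2, 7 or 8 there were 4 receptors called, and Flt3 was not called without library 1, 2, 3, 7 or 8. Il4ra, the receptor chain for interleukin 4, was 930, 986 and 1027 CPM in libraries 1 to 3, 382, 340 and 409 in 7 to 9, and 812 and 861 in 14 and 15. Il6st, the shared chain gp130, was 509, 239 and 484 TMM-scaled CPM. Of 24 tested stem and progenitor genes 4 were called, Myb and Myc lowest in 7-9 and Lyl1 and Flt3 highest. Myc was not called without library 1, 2 or 8, nor Lyl1 without library 1, 2, 3, 7 or 9. Of 24 tested myeloid transcription factors 4 were called, all lowest in 7-9, and 2 without library 1, 2 or 8. Over all tested genes 2.09% were called lowest there and 0.653% highest.

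Of 27 tested inflammatory genes 3 were called, the chemokines Ccl2 and Ccl6 and the prostaglandin enzyme Ptgs2, all lowest in sample 7-9. Over all tested genes the share lowest there was 2.09%, and 4.08% of those of at least 10 CPM, and without library 1, 2 or 8 there was 1 call in this list. Ccl6 was 572, 105 and 492 TMM-scaled CPM, while another chemokine gene, Ccl9, was 1632, 1446 and 1336 and not called (edgeR adjusted p = 0.818). Ccl2 lost its call without library 1, 2 or 8, and Ptgs2 without 1, 2, 3 or 8. Of 24 tested immediate early genes 6 were called, lowest in 7-9 (2.09% of all tested genes), among them Egr1 (208, 27.1 and 120 TMM-scaled CPM) and Zfp36, which degrades cytokine messages (273, 75.1 and 193). Without library 1, 2 or 8, 2 members of the list were called.

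Of 30 tested ribosomal protein genes 8 were called, all lowest in sample 7-9 (2.09% of all tested genes and 4.08% of those of at least 10 CPM). The list's median ratio was 1.43, against 1.55 over all tested genes and 1.27 over genes of at least 10 CPM, which all 30 reached. Of the 30, 4 were steady (13.3%), against 45.6% of genes at that level. Rps9 was 536, 283 and 483 TMM-scaled CPM (edgeR adjusted p = 0.0114). Without library 1, 2 or 8 there were 0 calls in this list, and without library 15 there were 13.

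The called genes of at least 10 CPM with the largest ratios are given by the sample that was highest. With sample 1-3 highest they were Hist1h2ap, a replication-dependent histone gene, Phgdh, Cyp26b1, which degrades retinoic acid, Mrc1 and Slc7a5. Hist1h2ap was 19.1, 24.9 and 22.6 CPM in libraries 1 to 3, 0 in libraries 7 to 9 and 18.6 and 16.4 CPM in libraries 14 and 15. Set against a floor of 3 counts over sample 7-9, its level in sample 1-3 was at least 741-fold higher. Whether it shares reads with other histone genes was not tested. The summed list of 19 replication-dependent histone genes was 519, 509 and 444 CPM in samples 1-3, 7-9 and 14-15, and 1 of 19 tested members was called.

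With sample 14-15 highest they were Csn2, encoding beta-casein, Chil3, Lcn2, Cd177 and Aldh1l2. Csn2 was 9.11, 0 and 39.2 TMM-scaled CPM in samples 1-3, 7-9 and 14-15, with 0 counts in each of libraries 7 to 9, so sample 14-15 was at least 1285-fold above the floor of sample 7-9. With sample 7-9 highest they were Pltp, a phospholipid transfer protein (1.19, 33.1 and 2.81 TMM-scaled CPM), Unc13a, Cx3cr1, Hspa1b, an inducible heat shock protein, and Carmil1. Cyp26b1 was not called without library 1, 2, 3 or 8, Hspa1b without 1 or 7, and Aldh1l2 without 7.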

How the data were processed

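The deposited values were gene counts that the authors made from stranded total RNA libraries (SMARTer Pico kit, RNA isolated with a DNase step, per the labels' protocols). Trimmomatic 0.35, RSEM 1.3.3 and the mouse build GRCm38 are named in the submitters' processing notes. The sources used here do not give the aligner, the strand setting or the rounding of estimates. In 1 deposited table each library has a column of counts, and in the other the authors' counts are summed over 3 or 2 libraries, and each control sum equalled its libraries for all genes.

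From these, CPM, TPM from GENCODE vM21 exon lengths and TMM-scaled CPM were computed. Variation among the 3 sums was tested over the 8 libraries with edgeR 4.0.16 (filterByExpr, TMM, quasi-likelihood F test, Benjamini-Hochberg adjusted p under 0.05), checked on simulated data. limma 3.58.1 (voom), DESeq2 1.42.0, other filters and scalings, and leaving out each library were alternatives. Sequences were compared with blastn 2.17.0. Promoters came from RefSeq, build GRCm38.p6. The floor for a gene at 0 is 3 counts over a summed sample or over all 8 libraries, and covers counting error only.

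Named genes were the most abundant ones, the leading members of each list, defining markers under 1 CPM, the called genes with the largest ratios (predicted loci left out) and the steadiest genes. Other named genes were chosen after their values were seen. The members and lists were chosen with earlier results of these data known. No comparison with the Mt1 knockdown was made.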

Additional observations from a re-analysis of the deposited data

Results flagged for a closer look

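In 88 values examined over the 8 control libraries, 5 had a single library far from the other 7, and it was library 9 each time. Chance alone marks about 1 in 20 such values. The summed erythroid list was 282 CPM in library 9, and the next highest library had 138 CPM. Plec, the cytoskeletal linker, was lowest there at 4410 CPM (next 6034 CPM). Pkm and Gapdh, enzymes of glycolysis, were lowest at 4656 CPM (next 5605) and 2340 CPM (next 2910). Glg1, a Golgi protein among the steadiest genes by summed sample, was lowest at 278 CPM (next 344 CPM). Library 9 also had the highest share of mitochondrial rRNA, 11.2% of its counts. The part of that share in these 5 values was not tested.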

How the results depend on the processing

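The count of 455 varying genes became 1306 with no filter, 957 with the second index sequence as a covariate, 1012 by DESeq2 and 183 at an adjusted p under 0.01. Only sample 7-9 held both index sequences, so the index term rests on library 9 against libraries 7 and 8. It cannot tell an index effect from the deviation of library 9. The count was 61 without sample 1-3, 0 without sample 7-9 (edgeR, with 532 genes at an unadjusted p under 0.05, 0 by limma-voom and 25 by DESeq2) and 761 without sample 14-15. With a library left out it ran from 172 to 637, with 199, 206, 280 and 172 without libraries 1, 2, 7 and 8. It was 458 with RLE factors, 454 with upper quartile factors, 546 with a filter of 1 CPM in every library of a sample and 589 by limma-voom. It was 451 without mitochondrial and ribosomal RNA genes, an alternative chosen after seeing the data. The cause of these shifts was not tested, apart from the fewer samples or genes each one enters. Of the 99 called genes named or examined singly, 48 stayed called under RLE factors and with each library left out, and 0 changed direction.

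Steady genes numbered 1098 among those of at least 100 CPM, and genes with a ratio of 2 or more numbered 102 there and 2782 at 1 CPM or more. Per length, the class shares were 65.6% (protein-coding), 14.5% (mitochondrial rRNA), 1.70% (long intergenic) and 9.98% (misc_RNA). The first 10 genes held 10.1% without mitochondrial and ribosomal RNA genes and 30.5% per length, and the first 100 held 27.1% and 50.5%. Of 240 counts of list members at 10 CPM or more under other settings, 235 were within 1.5 times. Counts of called members moved more: with no filter 17 ribosomal, 22 unfolded protein, 11 receptor and 9 of 14 mast cell genes were called. No paired analysis was possible because each replicate number belongs to a single library, so the samples compared share none.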

Other observations

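Mast cell genes were uneven between libraries of the same summed sample. Cpa3, mast cell carboxypeptidase, was 7.87, 37.0 and 158 CPM in libraries 1 to 3, 6.69, 178 and 618 CPM in libraries 7 to 9, and 0.209 and 394 CPM in libraries 14 and 15. Tpsb2, a mast cell tryptase, was 6.97, 31.9 and 168 CPM, then 10.8, 233 and 709 CPM, then 1.97 and 449 CPM. The summed list of 20 mast cell, basophil and eosinophil genes ran from 10.1 CPM in library 14 to 2563 CPM in library 9. Between samples 0 of its 12 tested members were called by edgeR, limma-voom or DESeq2, and 0 had an unadjusted edgeR p under 0.05, where 2.75% of all tested genes were called. With no filter on low counts edgeR called 9 of 14, and without library 15 it called 1 of 13. For Cpa3 and Tpsb2 the libraries within each sample overlapped those of the others.

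Other genes were uneven in a similar way. Gzmb, a granule protease, was 5.56, 29.8 and 51.7 CPM in libraries 1 to 3, 0.492, 45.7 and 110 CPM in libraries 7 to 9, and 0 and 109 CPM in libraries 14 and 15. Kit, the receptor for stem cell factor, was 2.89, 8.64 and 41.3 CPM, then 2.54, 62.1 and 140 CPM, then 0.865 and 88.7 CPM. Xist, the noncoding RNA of the inactive X chromosome, was 2.71, 0.655 and 21.4 CPM, then 1.07, 21.8 and 117 CPM, then 1.52 and 57.9 CPM. Libraries that were summed as technical replicates thus differed by more in these genes than the sums did.

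The mitochondrial gene mt-Co3 was 246 CPM in library 7 and at most 0.0903 CPM in the other 7, while its identical nuclear copy Gm28437 was 36.0 CPM in library 7 and 420 to 581 CPM elsewhere. Lars2, a mitochondrial leucyl-tRNA synthetase that ranked 9 by counts, stood at 0.768 to 1.02 times the level of the rRNA locus CT010467.1 in the 8 libraries. Their longest annotated transcripts gave no blastn match at an E value limit of 1e-10. No other rRNA locus or Lars2 transcript was searched, so whether the Lars2 counts include rRNA reads was not tested.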
